A study of Danio rerio with 3 samples.

Results

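The miRNAs of control embryos at 5 hpf (hours post-fertilization) were read from the control MO array, 1 of 3 miRNA arrays in the series. Every zebrafish miRNA probe on that array was taken, which gave 218 probes with 4 spots each, or 872 of its 9984 spots. The sample was total RNA, extracted with Trizol, of zebrafish embryos injected with a control morpholino (MO), an antisense oligonucleotide meant to have no target in the embryo. The methods describe eggs of wild-type AB fish, injected around the first cleavage. The other 2 arrays held embryos of the same age injected with *lin-28a* MO or *lin-28b* MO, and they are used here only to see whether a level recurred on a further array. The study's methods describe both of these as splice-blocking MOs. The sources used here do not give the number of embryos pooled for an array. RNA of the embryos was labelled with the dye Hy3, and an RNA labelled Universal Reference was labelled with Hy5 and hybridized to the same spots. A note in the sample labels speaks of a blend made from equal parts of the samples, but it does not say whether that blend is the reference.

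miRNAs are short RNAs that pair with sites in mRNAs, mostly in the 3′ untranslated region, and lower the translation and the stability of those mRNAs. At about the age studied, the zebrafish embryo passes from the mRNAs laid down in the egg to those transcribed from its own genome. The miR-430 family is among the first products of zygotic transcription and promotes deadenylation and clearance of many maternal mRNAs. The let-7 family and lin-4/miR-125 are miRNAs of later developmental time in the heterochronic pathway, and Lin-28 proteins block the maturation of let-7 precursors. Muscle, nerve, blood and gut, each known for miRNAs of its own, had not yet formed as differentiated tissues.

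The level of a miRNA is the median Hy3 intensity of its 4 spots, in the array's own units. The median was used because single raised spots occurred. No miRNA-free probe is named in the files, so the 2082 unnamed probes with 4 spots, whose targets the files do not give, served as the background. Their median of 14.7 in Hy3 and 14.25 in Hy5 is called the floor of each dye. A miRNA over 100 is called bright, which is the Hy3 limit the study used, one at or below 2 times the floor (29.4) is called near the floor, and one between these limits is called low. Brightness depends on the probe as well as on the amount of RNA, so the rank describes signals and does not order the abundance of different miRNAs. With 1 array there was no replicate embryo sample, no test was run, and each SD is over 4 spots of 1 array and is technical.

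Few zebrafish miRNAs gave a signal far above the floor in control embryos. Of the 218 miRNAs, 7 (3.21%) were bright, against 4.47% of the unnamed probes. Another 32 (14.7%) were low and 179 (82.1%) were near the floor, as were 79.8% of the unnamed probes. The last 2 counts rest on where the floor is set, since 127 were low and 84 near the floor with the 10th percentile of the unnamed probes as floor, and 15 were low at 3 times the floor. In all, 39 miRNAs (17.9%) exceeded 2 times the floor, against 20.2% of the unnamed probes, so the share of miRNAs with a raised signal was close to that of the array as a whole. The lowest miRNA level was 3.67, the median was 15.9 and the highest was 816.5. The middle of the distribution, between its quartiles, ran from 10.2 to 23.6 for miRNAs and from 9.78 to 25 for unnamed probes. The plot of the share of probes at or above each level shows both curves running close together across this range.

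**Figure D1:**
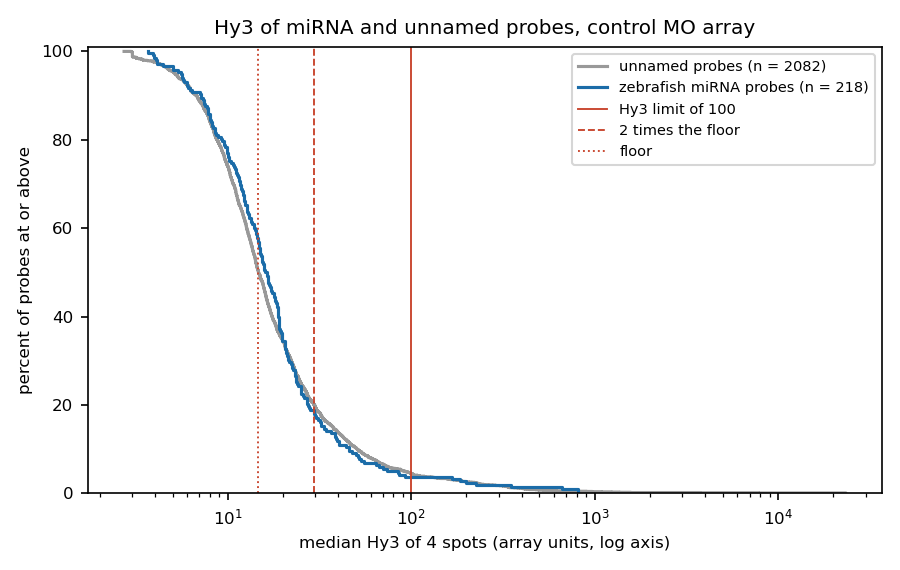
Percent of probes (vertical axis) at or above each median Hy3 intensity (horizontal log axis, array units) on the control MO array, for 218 zebrafish miRNA probes and 2082 unnamed probes. Vertical lines mark the floor of 14.7, 2 times the floor and the limit of 100. The curves run close together, with 39 miRNAs past 2 times the floor and 7 past 100.

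The 7 bright miRNAs were 4 members of the miR-430 family, miR-17a*, miR-203a and let-7c. All 4 spots of each were over 100. The brightest was miR-430j, with spots of 926, 815, 818 and 572 and a median of 816.5. Next in rank, miR-430b had spots of 992, 828, 496 and 508 around a median of 668, so its spots overlapped those of miR-430j. The spots of miR-430c were 412, 354, 344 and 286, with a median of 349, and all lay below those of the first 2 members. miR-430a, the fifth in rank, had spots of 284, 203, 193 and 183 and a median of 198. The remaining family member on the array, miR-430i, was near the floor with 23.6, 22.0, 21.4 and 17.0, a median of 21.7. The family was therefore split between 4 bright probes and 1 near the floor, with a median of 349 over its 5 probes. Probes of closely related family members can capture one another's miRNA, and how far their signals are separate was not tested.

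Between the miR-430 probes in rank stood miR-17a*, the star arm of the miR-17a hairpin, which is the strand usually degraded. Its spots were 254, 214, 224 and 229, with a median of 226.5, and they overlapped those of miR-430a. miR-203a, known from the epidermis, had spots of 216, 188, 181 and 144 around 184.5. let-7c, a let-7 family member, had spots of 210, 141, 131 and 192 around 166.5. The spots of miR-430a, miR-203a and let-7c overlapped, so their order within the rank is not resolved by the spread of the spots.

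**Figure D2:**
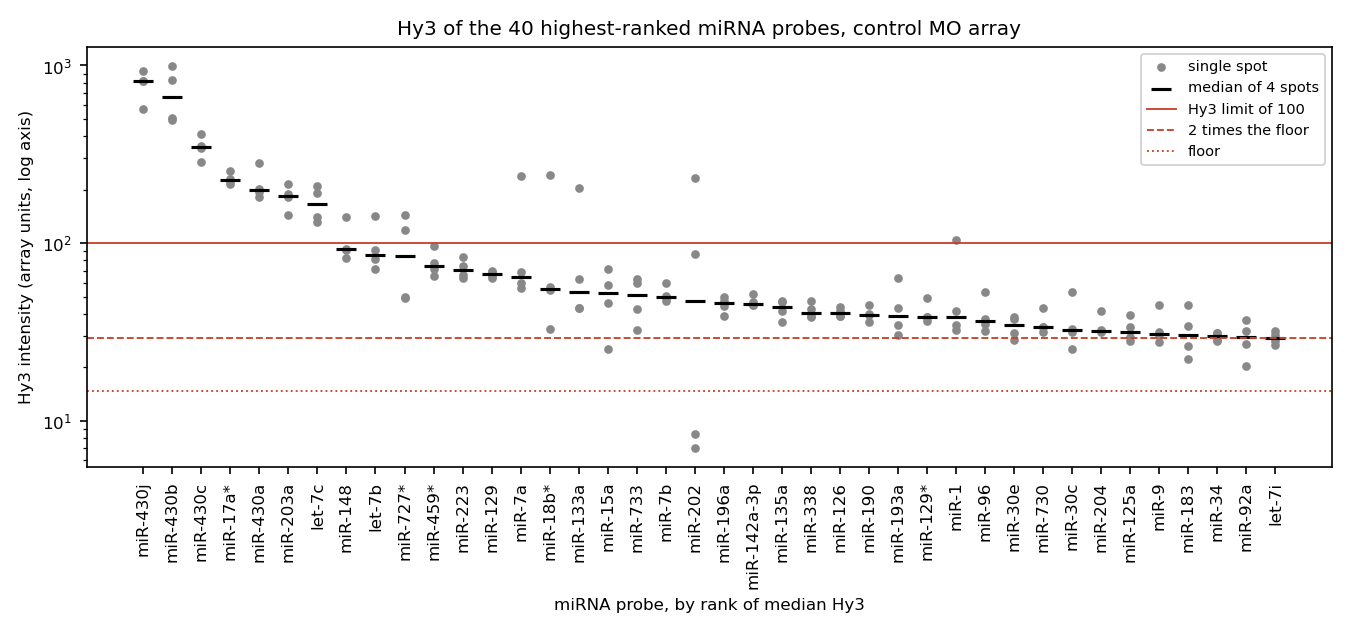
Hy3 intensity (vertical log axis, array units) of the 40 miRNA probes with the highest median on the control MO array, in order of rank. Grey points are single spots, black bars are medians of 4 spots, and lines mark 100, 2 times the floor and the floor. All spots of the first 7 miRNAs lie over 100, and single raised spots stand out for miR-7a, miR-18b* and miR-133a.

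The limit of 100 fell in a gap of the ranking, and that of 2 times the floor did not. Just inside the limit of 100 was let-7c at 166.5, and just outside it was miR-148 at 92.55, with spots of 141, 93.0, 92.1 and 82.8. Just inside the lower limit was miR-92a at 29.65, and just outside it was let-7i at 29.35, with spots of 28.1, 32.1, 30.6 and 26.9. Which miRNAs near 29.4 count as low is therefore decided by differences smaller than the spread of their spots.

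The low miRNAs ran from miR-148 down to miR-92a, and 23 of the 32 had all 4 spots past 29.4. After miR-148 came let-7b with 142, 91.3, 81.1 and 71.6, a median of 86.2. miR-727* had 2 spots at 119 and 144 and the others at 49.3 and 50.1, and its median of 84.55 falls between the pairs, at a level that none of its spots had. miR-459* had a median of 74.1, with spots from 65.8 to 96.1. miR-223, known from myeloid blood cells, had 83.8, 74.5, 66.6 and 63.7, a median of 70.55. miR-129, a miRNA of the nervous system, was among the tightest, with 68.8, 65.1, 63.7 and 69.6 around 66.95.

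Several of the next miRNAs carried 1 spot far above the rest. miR-7a, a miRNA of neural and endocrine cells, had a spot of 240 beside 59.4, 55.7 and 69.0, a median of 64.2. miR-133a, a muscle miRNA, had 204 beside 43.4, 43.3 and 63.2, a median of 53.3. The raised spot was not always the first of the probe, since miR-18b* had 54.7, 243, 56.5 and 32.7 (median 55.6). miR-202, known from the gonads, had 86.4, 233, 8.42 and 7.05, so its median of 47.4 stands between 2 high spots and 2 spots below the floor. It was the least settled of the low miRNAs.

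Across all miRNA probes, 6 held a spot over 4 times the median of the probe, namely miR-137, miR-18b*, miR-202, miR-24, miR-26a and miR-30b. Among the 2082 unnamed probes, 111 did. In miR-24, miR-26a and miR-30b the raised spots of 80.2, 219 and 231 stood beside medians of 18.9, 18.9 and 14.2. With the mean in place of the median these 3 would be called low, while miR-148 (mean 102) and miR-7a (mean 106) would be called bright. The first spot of a probe in table order was the brightest in 163 of 218 miRNAs (74.8%), and also in 72.8% of the unnamed probes. The median CV of the 4 spots was 19.5%, and 24 miRNAs had a CV over 50%. For the unnamed probes the median CV was 21.3%, and 272 of 2082 had a CV over 50%.

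Lower in the ranking, the medians of miR-15a, miR-733, miR-7b, miR-196a, miR-142a-3p and miR-135a lay between 44.0 and 52.25. miR-7b had close spots of 50.5, 47.1, 59.5 and 49.2. miR-196a, which is encoded in the Hox clusters and is known to repress Hox mRNAs, had 50.1, 47.0, 44.6 and 39.0 around 45.8. miR-142a-3p, a miRNA of blood cells, had 51.9, 46.5, 44.7 and 44.8 around 45.65. These 3 stayed within a narrow band on every spot. The ranks down to 30 were filled by miR-338 (40.65), miR-126 (40.4), miR-190 (39.6), miR-193a (38.95), miR-129* (38.35), miR-1 (38.2) and miR-96 (36.4). Among these, miR-1, a muscle miRNA, had 1 spot at 104 and the others at 32.5, 41.7 and 34.7.

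Set against the Universal Reference on the same spots, the bright miRNAs had much the same signal in both dyes. The Hy3/Hy5 ratio was taken for each spot, its median over 4 spots is given, and a ratio over 1.5 or under 1/1.5 is called higher or lower than the reference. None of the 7 bright miRNAs was higher or lower by this rule, and their ratios ran from 0.962 to 1.35. Of the bright unnamed probes, 4.30% were higher and 1.08% lower, with a median ratio of 0.991, so near-even ratios were common to bright probes on this array. The ratio of miR-430j was 1.35 ± 0.061 (SD, n = 4 spots), with Hy5 spots of 679, 573, 610 and 449. miR-430a and miR-430b had ratios of 1.32 ± 0.043 and 1.29 ± 0.029. That of miR-430c was 1.18 ± 0.019. In all 4 of these miR-430 members Hy3 was over Hy5 on every spot. For miR-17a*, Hy5 read 259, 227, 239 and 231, and Hy3 was below it on each spot (ratio 0.962 ± 0.027). miR-203a and let-7c, at 1.03 ± 0.040 and 1.04 ± 0.043, had Hy3 over Hy5 on 3 of 4 spots. The bright miRNAs other than miR-430 thus lay close to an even ratio.

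**Figure D3:**
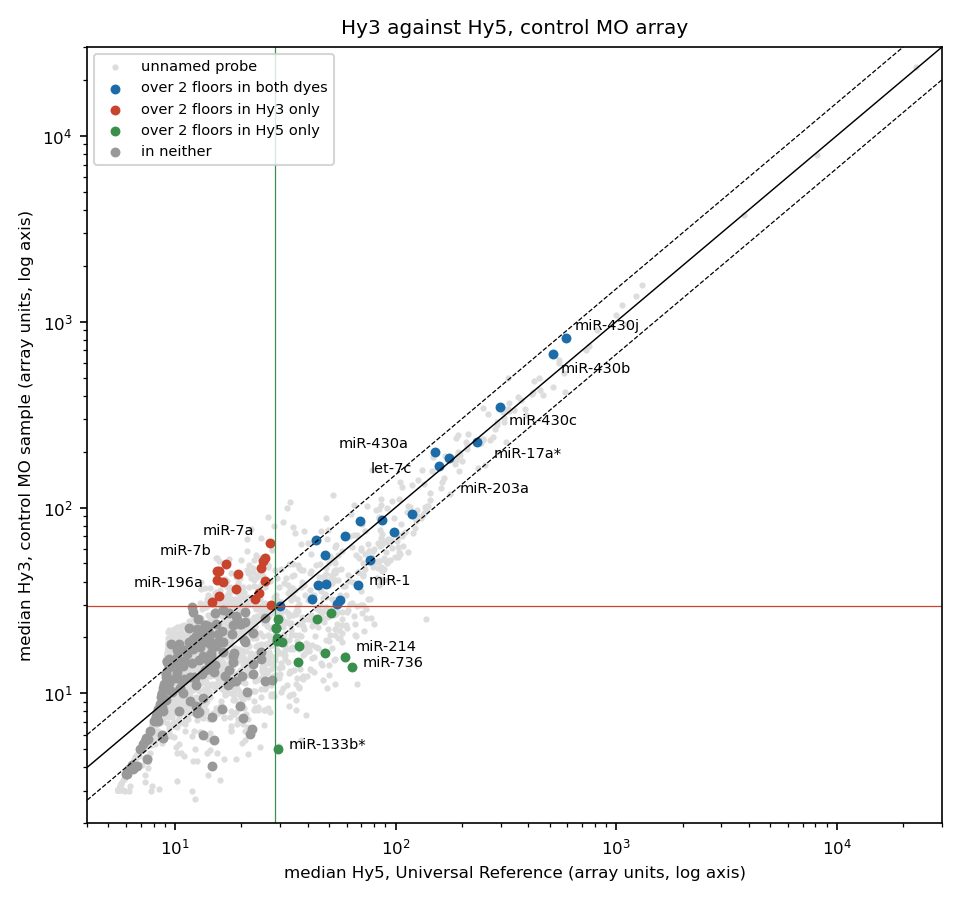
Median Hy3 of the control MO sample (vertical log axis) against median Hy5 of the Universal Reference (horizontal log axis), in array units, for 218 miRNA probes coloured by the dyes in which they exceeded 2 times the floor, over 2082 unnamed probes in pale grey. The solid diagonal is an even ratio, dashed diagonals are 1.5-fold, and coloured lines are 2 times the floor of each dye. The 7 bright miRNAs lie between the dashed lines, and miRNAs over the limit in Hy3 alone lie mostly above the upper one. The side of the latter is largely set by how the class was picked.

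Over all miRNAs, ratios leaned towards Hy3. Of the 218, 47 (21.6%) were higher than the reference, against 15.1% of the unnamed probes. Lower were 37 (17.0%), against 21.0% of the unnamed probes, and 134 (61.5%) lay within 1.5-fold. Hy3 was over Hy5 on all 4 spots of 87 miRNAs (39.9%), against 30.4% of the unnamed probes, and on none of the spots of 62 (28.4%), against 36.4%. The median ratio was 1.08 for miRNAs and 0.979 for unnamed probes. This split depends on scaling, since with the ratios centred on the median of the miRNAs 32 were higher and 46 were lower.

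All ratios past 1.5-fold belonged to low miRNAs or to those near the floor, the tiers that held every miRNA but the 7 bright ones. Of the 47 higher, 16 were low and 31 near the floor. Of the 37 lower, 3 were low and 34 near the floor. Of the 32 low miRNAs, 16 were thus higher, while 36.4% of the unnamed probes in the same tier were. Lower were 9.38% of the low miRNAs, against 17.1% of those unnamed probes. Of the 179 near the floor, 17.3% were higher and 19.0% lower, against 11.5% and 22.9% of the unnamed probes in that tier. The floors of 14.7 and 14.25 are medians of probes and not a measured background, and Hy3 levels of miRNAs went down to 3.67. How far background enters the ratios of weak signals was not tested.

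A miRNA can exceed 2 times the floor in both dyes, in 1 of them or in neither. The limit was 29.4 in Hy3 and 28.5 in Hy5. Both dyes passed it for 22 miRNAs (10.1%), against 14.4% of the unnamed probes. These include the 7 bright miRNAs and let-7b, miR-148, miR-223 and miR-129, and their median ratio was 0.994. Hy3 alone passed for 17 miRNAs (7.80%), against 5.76%. Hy5 alone passed for 14 (6.42%), against 8.55%. For 165 miRNAs (75.7%) neither dye passed.

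The 17 miRNAs seen in the embryo's dye alone had Hy3 levels from 30 to 64.2 and Hy5 levels from 14.7 to 27.3. Their median ratio was 2.14, with a range from 1.09 to 3.07, and 15 of them were over 1.5. That they lie over the reference is largely set by how the class was picked. Since Hy5 was not past its limit in any of them, their ratios are as read, do not order them and carry no exact fold. A bound is given instead, which is the Hy3 level over the Hy5 limit of 28.5. By this bound, which holds for medians and not for each spot, Hy3 was at least 1.05-fold to 2.25-fold over Hy5. By it 8 of the 17 were at least 1.5-fold over Hy5. Among the 8 was miR-202, whose bound is not a safe one. At 1.66 it exceeded the median spot ratio of 1.59, and Hy3 was over Hy5 on only 2 of 4 spots. Single spots of other miRNAs also read under their bound. Examples are miR-733, with spots of 1.66 and 1.37 and a bound of 1.80, and miR-7a, with a spot of 2.16 and a bound of 2.25. For miR-7b, Hy5 spots of 15.8, 16.0, 18.2 and 18.8 gave a ratio as read of 3.07 ± 0.29 and a bound of at least 1.75-fold. miR-196a, with Hy5 spots of 19.6, 15.4, 15.7 and 11.6, was at least 1.61-fold over the reference (2.95 as read). For miR-142a-3p the Hy5 spots were 14.3, 15.6, 16.2 and 16.2 and the bound was 1.60-fold (2.87 as read). Every spot of these 3 had more Hy3 than Hy5, and their Hy5 was close to the floor of 14.25. The others with high ratios as read were miR-338 (2.66), miR-7a (2.59), miR-135a (2.42), miR-190 (2.34), miR-9 (2.21), miR-730 (2.14) and miR-96 (2.12). Of these, miR-7a (at least 2.25-fold) and miR-135a (at least 1.54-fold) also passed 1.5 by the bound. For miR-7a and miR-133a, whose ratios as read were 2.59 ± 1.2 and 2.07 ± 0.89, the raised first spot also had the highest ratio, at 4.71 and 3.77.

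The 14 miRNAs seen in the reference dye alone had ratios as read from 0.170 to 0.871, with a median of 0.568, and 10 were lower than the reference. Their side of the reference is likewise largely set by how the class was picked. Here Hy3 was not past its limit, and the bound is the median Hy5 over the Hy3 limit of 29.4. By this bound on medians, 5 of the 14 were at least 1.5-fold lower, and the same count over the unnamed probes is not given here. miR-736 was at least 2.16-fold lower, with 13.7, 14.7, 14.2 and 11.9 in Hy3 and 69.2, 56.6, 63.2 and 63.7 in Hy5. miR-214 had Hy5 spots of 61.0, 60.1, 57.6 and 47.2 against a Hy3 median of 15.65, and was at least 2.0-fold lower. miR-133b*, at 5.04 in Hy3 and 29.4 in Hy5, gives no fold by this bound. In these 3 the 2 dyes did not overlap on any spot. The others were miR-184, miR-124, miR-731, let-7a, miR-30d, miR-456, miR-727, miR-735, miR-100, miR-140* and miR-19b. Among them let-7a, at 22.5 in Hy3 and 28.6 in Hy5, lay only just past the limit of the reference dye. Of the miRNAs over 2 times the floor in Hy3, the lowest ratios were those of miR-1 (0.550), miR-125a (0.555) and miR-183 (0.636), which were called lower. The ratios of miR-15a (0.680), miR-30c (0.751), miR-459* (0.776), miR-193a (0.805), miR-148 (0.817) and miR-129* (0.879) were within 1.5-fold.

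The levels in both dyes were correlated. Across the 218 miRNAs the correlation of log2 Hy3 with log2 Hy5 was 0.819 (Pearson) and 0.697 (Spearman), and across the unnamed probes it was 0.868 and 0.782. The points share the array, the spots and the probe sequences, and miRNAs are not independent replicates.

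By the lists of miRNAs grouped by family or by the tissue they are known from, the miR-430 family (349) and the sensory organ list (30.3) had a median over 2 times the floor, and the other 11 lists did not. The sensory organ median is the level of miR-183, just past the limit of 29.4. Its spots of 26.5 and 22.2 were under that limit, and miR-183 was near the floor on the other 2 arrays. The 10 let-7 probes comprised 1 bright, 1 low and 8 near the floor, with a median of 18.9. let-7c (166.5) and let-7b (86.2) stood apart from let-7i (29.35), let-7a (22.5), let-7h (18.95), let-7j (18.8), let-7e (16.65), let-7d (15.35), let-7g (11.5) and let-7f (11.2). The 4 spots of let-7a read 23.3, 21.8, 22.7 and 22.3, below the limit on each spot. let-7i was the only let-7 probe called higher than the reference, and let-7d and let-7e were called lower. All 3 were under the limit in both dyes, let-7i with Hy5 spots from 10.4 to 16.3, so these calls carry no fold.

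The lin-4/miR-125 group, which acts with let-7 in the heterochronic pathway of *C. elegans* or neighbours its genes, held 5 probes, and 4 were near the floor. miR-125a was low at 31.8, with spots of 39.4, 29.7, 28.1 and 33.9, and its Hy5 spots of 50.6 to 63.3 were all higher. miR-125b was at 21.25, miR-100 at 17.9, miR-125c at 16.5 and miR-99 at 7.51. The group had a median ratio of 0.599, and 3 of the 5 were lower than the reference (miR-125a, miR-100 at 0.502 and miR-99 at 0.599), against 17.0% of all miRNAs and 21.0% of the unnamed probes. Of these 3, miR-99 was near the floor in both dyes (7.51 and 14.75). The ratios of miR-125b (0.941) and miR-125c (0.938) were just under 1, with both probes under the limit in both dyes. On the *lin-28a* MO and *lin-28b* MO arrays they were over 1, at 1.03 and 1.19 for miR-125b and 1.22 and 1.17 for miR-125c. The 3 called lower stayed under 1 on those arrays, where the median ratio over all miRNAs was itself under 1 (0.896 and 0.921).

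**Figure D4:**
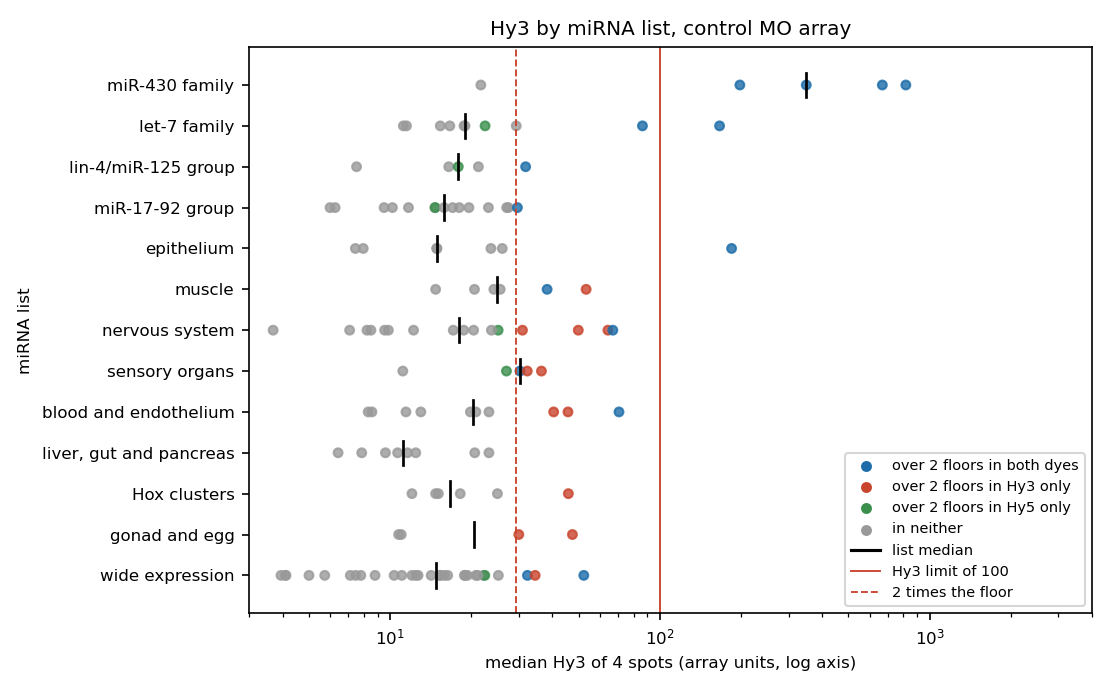
Median Hy3 (horizontal log axis, array units) of the members of 13 miRNA lists on the control MO array, 1 point per probe, coloured by the dyes in which it exceeded 2 times the floor, with a black bar at the list median. Vertical lines mark 2 times the floor and 100. The miR-430 family has 4 points past 100, let-7 and epithelium have 1 each, and no member of the liver, gut and pancreas list passes 2 times the floor.

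miRNAs known from later tissues were mostly near the floor, as were 82.1% of all miRNAs. Pooled were 5 lists, those of muscle, of the nervous system, of sensory organs, of blood with endothelium and of liver, gut and pancreas. They held 45 probes and none was bright, where 3.21% of all miRNAs and 4.47% of the unnamed probes were. The epithelium list was not pooled with them, and its miR-203a was bright at 184.5. Of the 45 probes, 12 (26.7%) were over 2 times the floor, against 17.9% of all miRNAs and 20.2% of the unnamed probes. Among the 12, 8 passed in Hy3 alone (miR-126, miR-133a, miR-142a-3p, miR-204, miR-7a, miR-7b, miR-9 and miR-96) and 4 in both dyes (miR-1, miR-129, miR-183 and miR-223). miR-124, a neuronal miRNA, and miR-184 passed in the reference dye alone.

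In the muscle list of 6 probes, miR-133a (53.3) and miR-1 (38.2) were low, and miR-133b (25.6) and miR-206 (24.25) headed the 4 near the floor. Beside this list and those below stand the shares over all miRNAs, 14.7% low and 82.1% near the floor. For the unnamed probes they were 15.7% and 79.8%. miR-1 and miR-133a, made from a shared transcript in muscle, lay on opposite sides of the reference, at a ratio of 0.550 for miR-1 and at least 1.87-fold over it for miR-133a. Of the 16 miRNAs of the nervous system, 4 were low, which were miR-129 (66.95), miR-7a (64.2), miR-7b (49.85) and miR-9 (30.95). The other 12 were near the floor, and miR-124 stood at 25.15 with a Hy5 of 44.25. Higher than the reference were 6 of the 16, against 21.6% of all miRNAs and 15.1% of the unnamed probes.

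Against 17.9% of all miRNAs and 20.2% of the unnamed probes, 3 of the 5 members of the sensory organ list were over the limit. These were miR-96 (36.4), miR-204 (32.25) and miR-183 (30.3), with miR-184 at 27.0. miR-96 and miR-183, known as a cluster expressed in hair cells and photoreceptors, lay over the reference (at least 1.28-fold) and under it (a ratio of 0.636). Of the 10 miRNAs of blood and endothelium, miR-223 (70.55), miR-142a-3p (45.65) and miR-126 (40.4) were low. miR-221 (23.25) and the other 6 were near the floor, among them miR-451, a miRNA of red blood cells, at 11.45. The 8 miRNAs of liver, gut and pancreas were all near the floor, from 6.42 to 23.25. miR-122, the dominant miRNA of the liver, was the highest of them, and miR-375 of the pancreatic islets followed at 20.6, while miR-194a (12.45) and miR-216a (11.6) were under the floor.

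In the epithelium list, miR-203a was the only one of 7 members over the limit. miR-200b (26.05), miR-200a (23.65) and miR-429 (14.9) were near the floor. Of 6 miRNAs from the Hox clusters, miR-196a (45.8) was low, and miR-10b (25), miR-10a (18.2) and miR-10d (15.1) were near the floor. In the gonad and egg list, miR-202 (47.4) and miR-34 (30) were low and miR-34b (11.0) and miR-34c (10.8) near the floor. Of 30 miRNAs known for wide expression in adult tissues, 27 were near the floor, where 82.1% of all miRNAs were. The 3 exceptions were miR-15a (52.25), miR-30e (34.5) and miR-30c (32.3), and the next in level was miR-27b at 25.2.

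The miR-17-92 group, a set of miRNAs encoded in clusters and known for promoting proliferation, had 15 probes for main arms. Of these, 14 were near the floor, where 82.1% of all miRNAs were, and miR-92a was low at 29.65, with spots of 32.1, 27.2, 37.0 and 20.5. It was followed by miR-18c (27.45), miR-18b (27.05) and miR-93 (23.15), and the group median was 15.85. The star arm miR-17a*, which is not a member of the list, was bright, at 226.5 against 14.65 for miR-17a. In the RefSeq annotation of assembly GRCz12tu, the miR-17a genes between them have miR-18a, miR-18b, miR-19a, miR-19b, miR-20a and miR-92a within 10 kb. Among the main-arm probes of these, only miR-92a was over 2 times the floor. The star probe miR-18b* was over it as well, at 55.6. A comparison of arms rests on different probes, so it describes signals and not the ratio of strands.

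This pattern was not limited to miR-17a. Of 26 star probes, 1 was bright, 4 were low and 21 were near the floor, so 19.2% exceeded 2 times the floor, against 17.7% of the 192 other probes. In the 25 pairs with both arms on the array, both were near the floor in 14. The star arm alone was over the limit in 4 pairs (miR-17a*, miR-727*, miR-459* and miR-18b*) and the main arm alone in 6, and in miR-129 both arms were. miR-459* at 74.1 stood beside miR-459 at 8.08, and miR-727* at 84.55 beside miR-727 at 19.1. In the opposite direction, miR-133a at 53.3 stood beside miR-133a* at 5.32, and miR-15a at 52.25 beside miR-15a* at 7.80.

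Of the 218 probes, 216 matched a gene in that annotation by name, and miR-430j and miR-143 did not. Within the miR-430 family, miR-430b matched 19 genes, miR-430c and miR-430a matched 18 each and miR-430i matched 3. miR-17a and let-7c had 2 each, and miR-203a and miR-148 had 1 each. Some genes of miR-430a, miR-430b and miR-430c lie within 10 kb of one another. Some genes of miR-430a and of miR-430b also lie that close to miR-430i, the member near the floor. Genes of miR-430a are on 2 chromosomes, and those of miR-430b and of miR-430c on 1. The let-7c genes between them have miR-125c and miR-99 within 10 kb, and these neighbours were near the floor at 16.5 and 7.51. let-7b has let-7a, at 22.5.

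A look at the other 2 arrays shows which of these levels recurred, each array being held to its own floor of 13.2 (*lin-28a* MO) and 13.05 (*lin-28b* MO). Of the 7 bright miRNAs, 6 were also bright with *lin-28a* MO and 4 with *lin-28b* MO. The 4 that were bright on all 3 arrays were miR-430j, miR-430b, miR-430c and miR-17a*. In the order control MO, then *lin-28a* MO, then *lin-28b* MO, the levels of miR-17a* were 226.5, 225 and 112. miR-430a, at 198, 118 and 99.4, fell just under the limit on the last of these. The Hy3/Hy5 ratios of the 4 bright miR-430 members, over 1 with control MO, did not recur. They ran from 0.640 to 0.808 with *lin-28a* MO and from 0.615 to 0.809 with *lin-28b* MO. The medians over all miRNAs on these 2 arrays were 0.896 and 0.921. let-7c had 166.5, 89.0 and 50.2, and miR-203a had 184.5, 136.5 and 55.7. These arrays differ in the MO injected and in overall brightness, which cannot be told apart with 1 array per condition. As a measure of that brightness, 93, 69 and 45 of the unnamed probes were over 100 on the 3 arrays.

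Of the 39 miRNAs over 2 times the floor on the control MO array, 30 were so on all 3 arrays, and 173 of the 218 were near the floor on all 3. The same counts over the unnamed probes are not given here. The 9 that did not recur on all were miR-15a, miR-733, miR-202, miR-1, miR-30c, miR-125a, miR-183, miR-34 and miR-92a. Of these, miR-202, which had 2 high spots on the control MO array, fell to 8.76 and 8.14 on the others, and miR-1 to 18.75 and 14.1. Another 6 miRNAs passed the limit on a morphant array only, among them let-7i at 29.7 and 28.2. Across the 218 miRNAs, log2 Hy3 of control MO correlated with that of *lin-28a* MO at 0.961 (Pearson) and 0.942 (Spearman), and with that of *lin-28b* MO at 0.938 and 0.918, over points that share probes.

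The miRNAs seen in Hy3 alone mostly stayed on that side of the reference on the other arrays. Over all 17, the median ratio was 2.14, 2.12 and 2.01 on the 3 arrays, and 13 of them were in that class on every array. Over the 14 seen in Hy5 alone the medians were 0.568, 0.574 and 0.512, and 4 (miR-184, miR-735, miR-214 and miR-736) were in that class on every array. Over the 22 past the limit in both dyes they were 0.994, 0.791 and 0.774, and 16 kept their class. Beside these stand the medians over all miRNAs, at 1.08, 0.896 and 0.921. Over the unnamed probes they were 0.979, 0.838 and 0.866, so the ratios of the whole array were also lower on the other arrays. The only one of the first 17 with a ratio under 1 on another array was miR-202, at 1.59 with control MO and at 0.730 and 0.746 on the others. The share of unnamed probes that kept a class is not given here. The arrays share their probes, so a kept class is not shown to be particular to these miRNAs.

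**Figure D5:**
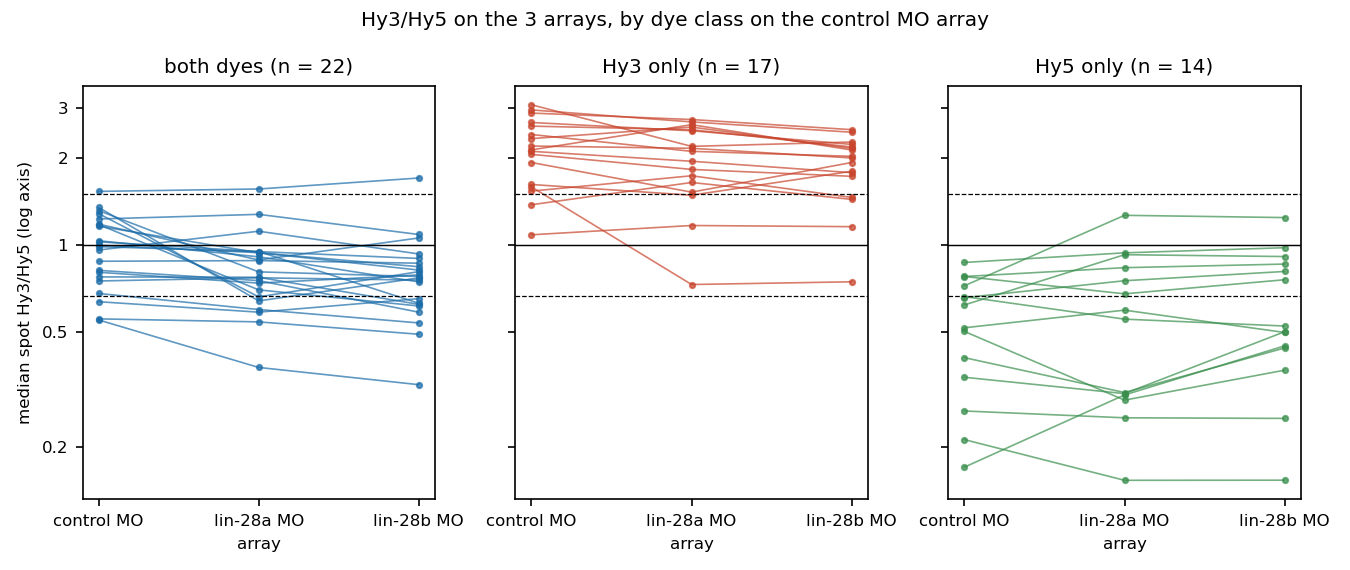
Median spot Hy3/Hy5 (vertical log axis) on each of the 3 arrays (horizontal axis, by MO injected), 1 line per miRNA, in 3 panels by the dyes in which the miRNA exceeded 2 times the floor on the control MO array. Solid lines mark an even ratio and dashed lines 1.5-fold. Of 17 miRNAs seen in Hy3 alone, 15 lie over 1.5 on the control MO array, and the line that drops below 1 is miR-202. The classes were picked on the control MO array, which largely sets the side of the 1-dye classes there.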

How the data were processed

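Embryo RNA at 5 hpf was hybridized to miRCURY LNA arrays (Exiqon), with 1 array for each MO. The authors deposited a spot table with a Hy3 and a Hy5 intensity for each spot, and a series table with a linear Hy3/Hy5 ratio for each of 208 miRNAs. How images were read, corrected for background or normalized before deposit is not stated in these sources, and the deposited intensities come without background columns. How far background remains in dim spots, and in their ratios, was not measured here. No file names a genome build, so RefSeq names of assembly GRCz12tu served only for names and neighbours.

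The median of 4 spots was taken per probe, unscaled, and the ratio was computed per spot. No test was run, since spots of 1 array are technical. The number of arrays limits the precision. The computation was tested on simulated data whose relative spot error was the same at all levels, with no background added. That test does not cover how background acts on the ratios of dim spots. The members and the 13 lists were chosen with earlier results of these data known. Named were all bright miRNAs, those down to rank 30, all miR-430, let-7 and lin-4/miR-125 probes, the 4 highest of each list, the 10 highest and 10 lowest ratios over 2 times the floor, and miRNAs beside a limit. Others were named after their values were seen, such as those of 1 dye class, paired arms or raised spots. Python 3.11.15, numpy 2.4.6, pandas 2.3.3, R 4.3.3 and limma 3.58.1 (for a loess alternative) were used.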

Additional observations from a re-analysis of the deposited data

How the results depend on the processing

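The tiers moved with the limits set. With a Hy3 limit of 50 in place of 100, 18 miRNAs were bright and 21 low, and with a limit of 200, 4 were bright. With the 10th percentile of the unnamed probes as floor, 127 were low and 84 near the floor, and with 3 times the floor 15 were low. Ratios over 1.5 numbered 28 after a within-array loess, 13 at a fold of 2 and 16 among miRNAs over 2 times the floor in Hy3, where 3 were under 1/1.5. At a fold of 2, 14 were lower. Among the 7 bright miRNAs, 0 were higher and 0 lower, against 4.30% and 1.08% of the bright unnamed probes. With the floor of each dye subtracted in 22 miRNAs over the limit in both, 1 was higher and 5 lower, and the same 22 had 1 and 3 unsubtracted, so both the probes left and the subtraction moved these counts. The other changes follow from the limits or the probes left, except for loess, where the cause was not tested.

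Leaving out 1 of the 4 spot positions gave 7 to 8 bright, 29 to 31 low and 180 to 181 near the floor, and 43 to 50 higher and 37 to 46 lower ratios. Ratios of single miRNAs were recomputed for the bright miRNAs and for miRNAs seen in Hy3 alone with high ratios as read. Of 109 such ratios under an alternative, 93 moved by less than the SD of their spots and 16 by more. All 16 were ratios of bright miRNAs under centring or loess. Centring on the miRNA median, for example, brought miR-430b from 1.29 to 1.19, and loess brought miR-430a from 1.32 to 1.41. Loess brought miR-17a* to 1.01, and centring on the miRNA median brought miR-203a to 0.952 and let-7c to 0.959. The spot SD ran from 0.019 to 0.061 in the bright miRNAs and from 0.19 to 1.2 in those seen in Hy3 alone. Subtracting the floor was tried on single ratios of the bright miRNAs only. The count of 93 therefore does not show that the ratios of dim miRNAs are stable. The deposited ratios differed from the mean spot ratios by at most 0.350%. No paired analysis was possible because there was 1 array per condition.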
